A study of Bos taurus with 8 samples.

Results

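The arrays described here set muscle cells of Limousin bulls (LIM), a beef breed, against muscle cells of Holstein-Friesian bulls (HF), a dairy breed. They were chosen by their titles, which name Limousin in Cy5 and Holstein Friesian in Cy3, and there are 4 of them among the 8 arrays of the series. The other 4 arrays set Hereford (HER), another beef breed, against HF with the dyes exchanged. The cells were primary cultures isolated from m. semitendinosus, a hind limb muscle, of 15-month-old bulls, 4 of each breed, and were frozen while proliferating at 80% of confluence in serum medium, with no treatment. Every LIM array carried LIM in red (Cy5) and HF in green (Cy3), and all 4 lay on one slide. A difference between the breeds, a difference between the dyes and an effect of that slide therefore cannot be told apart within this comparison. The labels call the arrays biological replicates 1 to 4. Which HF bull was hybridised to which array, or whether HF was shared or pooled, is not given in the sources used here. The p-values measure the spread between arrays, and the part of the HF cultures in that spread is not known. The isolation enriched for myogenic cells by repeated preplating, which removes cells that attach early, such as fibroblasts, and it left a share of other cells.

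Satellite cells are the stem cells of skeletal muscle. Once activated they divide as myoblasts under the myogenic factors MYF5 and MYOD1, leave the cell cycle when myogenin (MYOG) rises, switch on the genes of the contractile apparatus and fuse into myotubes. Fibroblasts, pericytes and endothelial cells of the muscle share the dish with them, and fibroblasts and myoblasts both lay down collagens and proteoglycans. A whole-culture measurement cannot tell fewer cells of a type from less RNA per cell.

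Of the 21475 probes, 80.9% to 85.2% were above background in LIM on each array, and at most 78.0% in HF. No spot was saturated. The labelled cell type was checked against its markers. Of 8 markers of muscle cells, 7 were on the array by name, and these 7 (MYF5, MYOD1, MYOG, DES, CDH15, NCAM1 and ITGA7) were above background in both breeds on all 4 arrays. The satellite cell factor PAX7 was not among the named probes. All 6 fibroblast markers were also above background in both breeds on all 4 arrays, as was KDR, the 1 endothelial marker of 4 that the array names. RGS5 of pericytes did not pass the filter on dim probes, and MYH11 of smooth muscle was above background on 3 of 4 arrays in HF. The values below are log2 ratios of LIM over HF, so that 1 stands for a doubling in LIM and -1 for a halving, and they are given in the order of LIM replicates 1, 2, 3 and 4.

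Transcripts of 18 of 30 sarcomere genes and 10 of 21 matrix genes tested were called higher in LIM than in HF cells, and 1 and 2 lower. The 18 include LMOD2, MYOT, UNC45B and SMPX, which passed the filter on dim probes only through LIM. The direction of their calls is not read as a result. The largest named increase was 18.6-fold, for skeletal actin ACTA1, and the largest named decrease 5.79-fold, for the tight junction protein CLDN15. Of 17342 probes tested, 2997 (17.3%) differed by 1.3-fold or more at a Benjamini-Hochberg adjusted p of 0.05 or less (limma), and these are called higher or lower from here on. The 1487 probes called higher were 8.57% and the 1510 called lower were 8.71% of those tested. At limma's unadjusted p with the same fold change, 4597 probes (26.5%) passed. Among called probes, 77 were higher by at least 2 on the log2 scale and 34 lower by at least 2. All 2997 called probes had one sign on the 4 arrays, against 47.2% of the tested probes. A call needs a mean that is large against its spread over these same arrays. The shared sign thus follows largely from the rule of calling and is not read as agreement. The number of calls rests on which arrays are present. Without LIM replicate 1 it was 573, without replicate 2 it was 4, and without replicate 4 it was 4966. Without replicate 3, limma called 0 probes at the adjusted p and 3412 at the unadjusted p. The even split also depends on how the arrays are scaled: with median centring in place of loess, the median of all probes moved from 0.01 to 0.18, and 4271 probes were called higher and 794 lower.

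**Figure D1:**
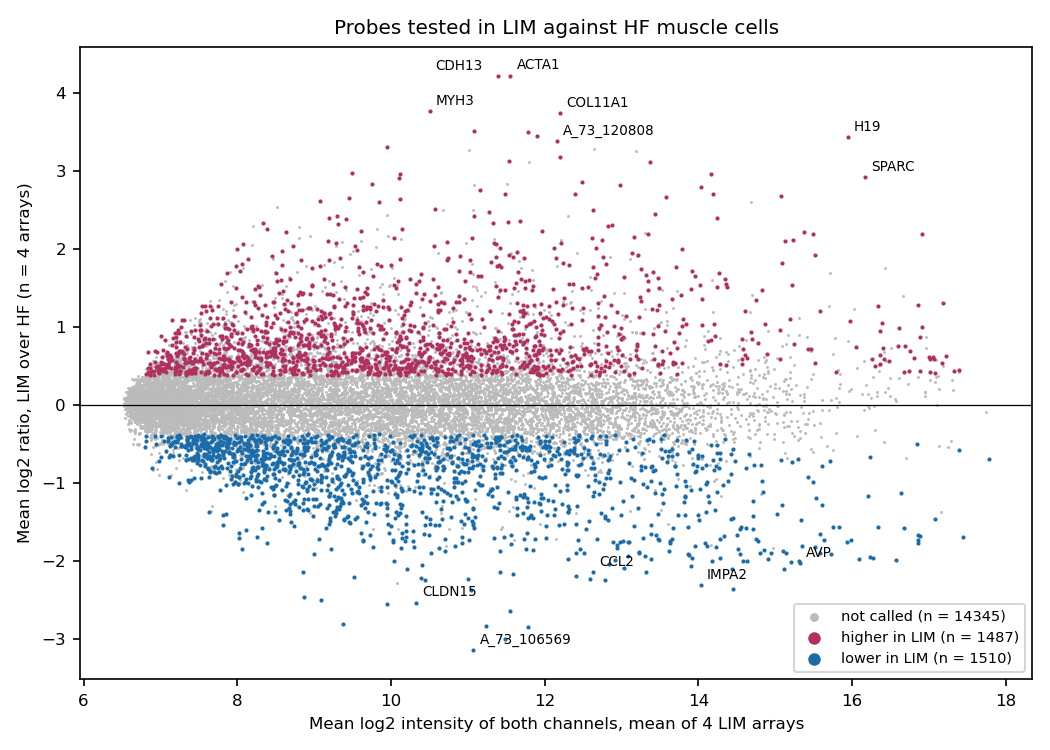
Each point is a tested probe, with its mean log2 intensity over both channels on the horizontal axis and its mean log2 ratio of LIM over HF on the vertical axis (4 LIM arrays). The 1487 probes called higher reach 4.22, and the 1510 called lower reach -3.14, with a band of very bright probes near -2 on the right that includes AVP.

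Among the 20 highest named genes were 6 of the sarcomere, the contractile unit of striated muscle. ACTA1, the actin of the skeletal thin filament, read 4.61, 2.12, 5.10 and 5.03, a mean of 4.22 ± 1.41 (SD, n = 4, adjusted p = 0.0166 in limma). Its LIM replicate 2 stood well below the other 3 arrays, which were close together. MYH3, the embryonic myosin heavy chain that forming fibres use first, read 4.12, 3.08, 3.93 and 3.92, with a mean of 3.76 ± 0.46 (SD, n = 4, adjusted p = 0.00924 in limma). TNNC2, the fast troponin C that binds calcium on the thin filament, averaged 3.51 ± 0.80, and ACTC1, the cardiac actin that young skeletal muscle also makes, averaged 3.49 ± 0.50 (both SD, n = 4). KLHL41, which stabilises nebulin on the thin filament, was at 3.31 ± 0.72 and MYL2, the regulatory myosin light chain, at 2.97 ± 0.57. CHRNG, the fetal gamma subunit of the acetylcholine receptor, was at 2.83 ± 0.73. In each of these 7 genes LIM replicate 2 gave the lowest ratio of the 4 arrays, and still a ratio of at least 1.97. Adjusted p-values of the 20 highest named genes lay between 0.00924 and 0.0452. All 20 kept their calls without LIM replicate 4, and 8 kept them without replicate 1, 3 without replicate 2 and none without replicate 3, where limma called 0 of the 17342 probes.

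Matrix and adhesion genes were 8 of the 20 highest. CDH13, a cadherin without a cytoplasmic tail, read 4.87, 4.48, 4.94 and 2.55, a mean of 4.21 ± 1.13 (SD, n = 4, adjusted p = 0.0130 in limma). COL11A1, a chain of the fibrillar collagen XI, read 4.53, 3.86, 5.07 and 1.48, a mean of 3.73 ± 1.58. FMOD, fibromodulin, a small proteoglycan that binds collagen fibrils, read 3.96, 2.83, 4.08 and 0.56. Here it was LIM replicate 4 that stood below the others. The same array was lowest for COL3A1 (2.96 ± 1.48), SPARC, a secreted collagen-binding protein (2.92 ± 0.85), HSPG2 or perlecan of basement membranes (2.79 ± 0.74) and FN1, fibronectin (2.70 ± 0.91). COL18A1, another basement membrane collagen, differed in that its lowest array was LIM replicate 1, with 1.33 against 4.35, 3.51 and 3.51.

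The remaining genes among the 20 highest serve other roles. GADD45G, a growth arrest and stress protein, read 4.21, 3.59, 3.65 and 2.34, a mean of 3.45 ± 0.79. H19, the imprinted non-coding RNA transcribed next to IGF2, read 4.52, 2.29, 4.32 and 2.61, so that replicates 1 and 3 stood well above the other 2. IGF2 itself was at 0.34 ± 0.65 and was not called (adjusted p = 0.394 in limma). CST3, cystatin C, an inhibitor of cysteine proteases, averaged 3.11 ± 1.14. OS9, a lectin of endoplasmic reticulum quality control, averaged 2.70 ± 1.21 and CYB5R3, a cytochrome b5 reductase, 2.70 ± 0.94. Both were lowest on LIM replicate 4, at 0.91 and 1.32. Of the 20 highest named genes, LIM replicate 4 gave the lowest ratio in 11 and LIM replicate 2 in 8.

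**Figure D2:**
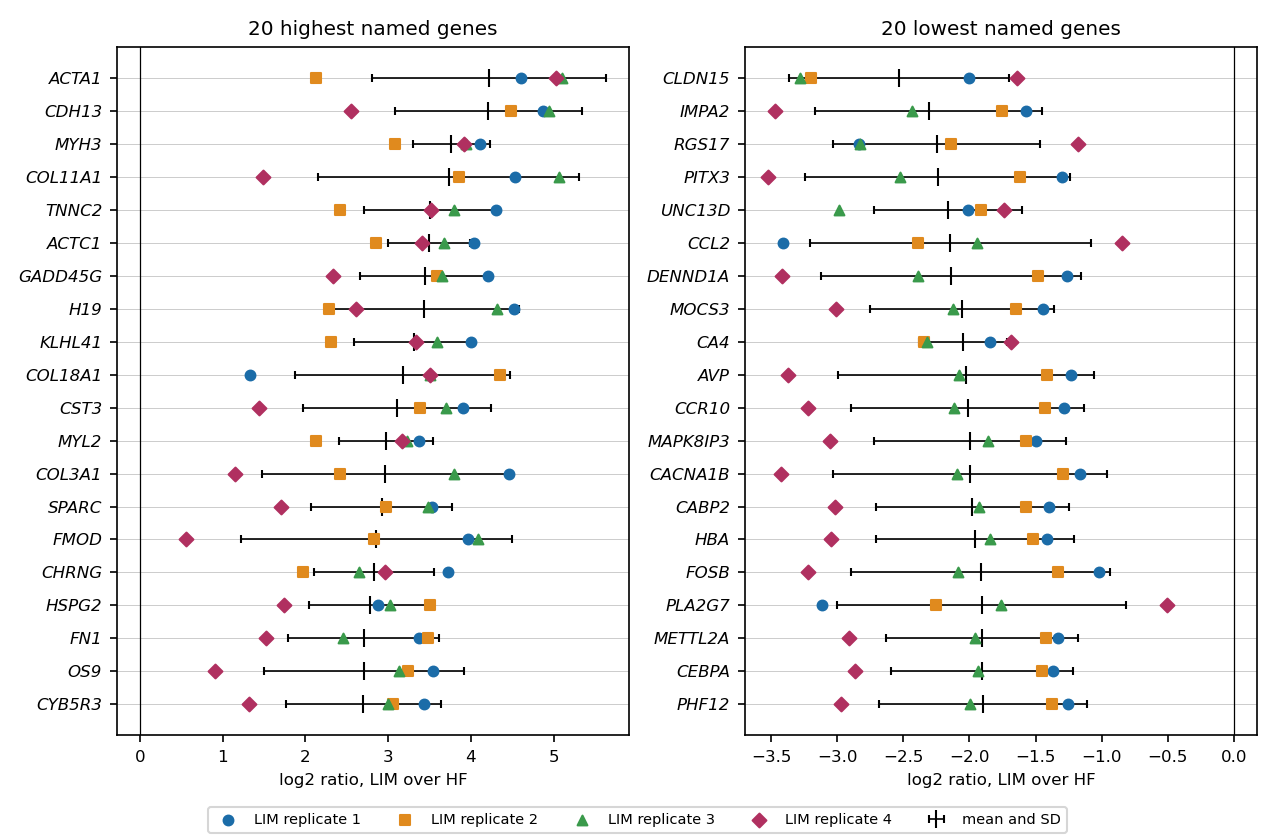
Log2 ratio of LIM over HF on each of the 4 LIM arrays (coloured symbols) for the 20 named genes with the highest and the 20 with the lowest mean among called genes, with the mean and SD in black (n = 4). In the left panel the contractile genes have LIM replicate 2 at the left. The matrix genes have replicate 4 at the left, except COL18A1, which has replicate 1 there. In the right panel 14 genes share a spread in which replicate 4 reaches -2.86 or lower.

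The 20 lowest named genes fell into a set of 6 and a set of 14, a division made after their values were seen. CLDN15, a claudin that forms cation pores between epithelial cells, read -2.01, -3.20, -3.29 and -1.64, a mean of -2.53 ± 0.83 (SD, n = 4, adjusted p = 0.0164 in limma). RGS17, which shuts off G protein signals, was at -2.25 ± 0.78, and UNC13D, a priming factor of granule secretion, at -2.16 ± 0.56. CCL2, the chemokine that draws monocytes, read -3.41, -2.39, -1.95 and -0.84, a mean of -2.15 ± 1.06. PLA2G7, a secreted phospholipase that degrades platelet activating factor, read -3.12, -2.26, -1.76 and -0.50. CA4, a membrane-bound carbonic anhydrase, was the tightest of these genes at -2.05 ± 0.33 (adjusted p = 0.00944 in limma). LIM replicate 4 was the array closest to 0 for all 6, with values between -1.74 and -0.50.

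The other 14 were IMPA2, PITX3, DENND1A, MOCS3, AVP, CCR10, MAPK8IP3, CACNA1B, CABP2, HBA, FOSB, METTL2A, CEBPA and PHF12. They differ in known function. AVP encodes the vasopressin precursor of the hypothalamus, HBA the alpha chain of haemoglobin, CACNA1B a neuronal calcium channel, PITX3 a factor of lens and midbrain neurons, and CEBPA a factor of fat and liver cells. Their ratios on the arrays were nearly the same. LIM replicate 1 lay between -1.57 and -1.02, replicate 2 between -1.76 and -1.29, replicate 3 between -2.52 and -1.85, and replicate 4 between -3.52 and -2.86. AVP, for example, read -1.23, -1.42, -2.08 and -3.37, a mean of -2.03 ± 0.97 (SD, n = 4, adjusted p = 0.0313 in limma). The spots of these 14 probes were very bright, between the 91.3 and the 99.3 percentile of mean intensity over all tested probes, whereas the set of 6 lay between the 52.2 and the 90.2 percentile. Brightness depends on the probe as well as on its transcript and is not a level that can be set against another gene. The same array pattern was spread over the called probes. Replicate 4 was the most negative and replicate 1 the least negative in 351 of the 1510 probes called lower, in 194 of the 378 brightest of them and in 8 of the 378 dimmest. When the spread of the arrays was made equal by scaling between arrays, none of the 14 kept its call, with ratios between -2.47 and -2.04. The part of probe properties in this pattern was not tested.

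Probes without a gene symbol could not be assigned a function. Their highest mean ratio was below that of ACTA1 and their lowest was below that of CLDN15. Of 10205 such probes tested, 1811 (17.7%) were called, close to the 16.9% of the 6748 named genes. Of these 1811 probes, 851 were higher and 960 lower. By kind of record, 416 of 3655 probes for tentative consensus sequences, assembled from expressed tags, were called higher and 265 lower. Of 2017 probes that the files describe by the probe name alone, 76 were called higher and 288 lower, and of 2187 probes of Ensembl transcripts 129 and 210. The difference between kinds was not tested.

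The unnamed probe with the highest ratio was A_73_120808, designed to a tentative consensus sequence, which read 4.16, 4.01, 4.15 and 1.21, a mean of 3.38 ± 1.45 (SD, n = 4, adjusted p = 0.0250 in limma). Its first 3 arrays nearly coincided, and LIM replicate 4 was far lower. A_73_114910, from a predicted RefSeq mRNA, averaged 3.12 ± 1.23 with the same array lowest. A_73_109880 averaged 2.82 ± 1.24 and read 0.98 on that array. This is the array pattern of most of the matrix genes. A_73_117162 read 3.75, 1.85, 3.18 and 3.06, and A_73_101248, from an expressed sequence tag, read 3.25, 2.27, 3.00 and 3.12, a mean of 2.91 ± 0.44. Both were lowest on LIM replicate 2, the array pattern of the contractile genes among the 20 highest named genes. A_73_108788 read 1.40, 3.66, 2.91 and 3.06 and was lowest on LIM replicate 1, as COL18A1 was. A likeness over 4 arrays names no gene.

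The 8 lowest unnamed probes had means between -3.14 and -2.50, and 7 of them lay below CLDN15, the lowest named gene. A_73_106569, from a predicted RefSeq mRNA, read -2.95, -3.00, -4.07 and -2.57, a mean of -3.14 ± 0.64 (SD, n = 4, adjusted p = 0.0100 in limma), which is 8.84-fold lower in LIM. A_73_114111, given by probe name alone, averaged -3.00 ± 0.52, A_73_112246, from an Ensembl transcript, -2.85 ± 0.52, and A_73_116123, from a predicted RefSeq RNA, -2.83 ± 0.45. LIM replicate 3 was the most negative array in 7 of the 8. The exception, A_73_108821, read -3.82, -3.04, -3.69 and -0.68. Their spots lay between the 53.4 and the 83.8 percentile of mean intensity, below all 14 of the bright named genes. All 8 kept their calls with scaling between arrays and with median centring.

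**Figure D3:**
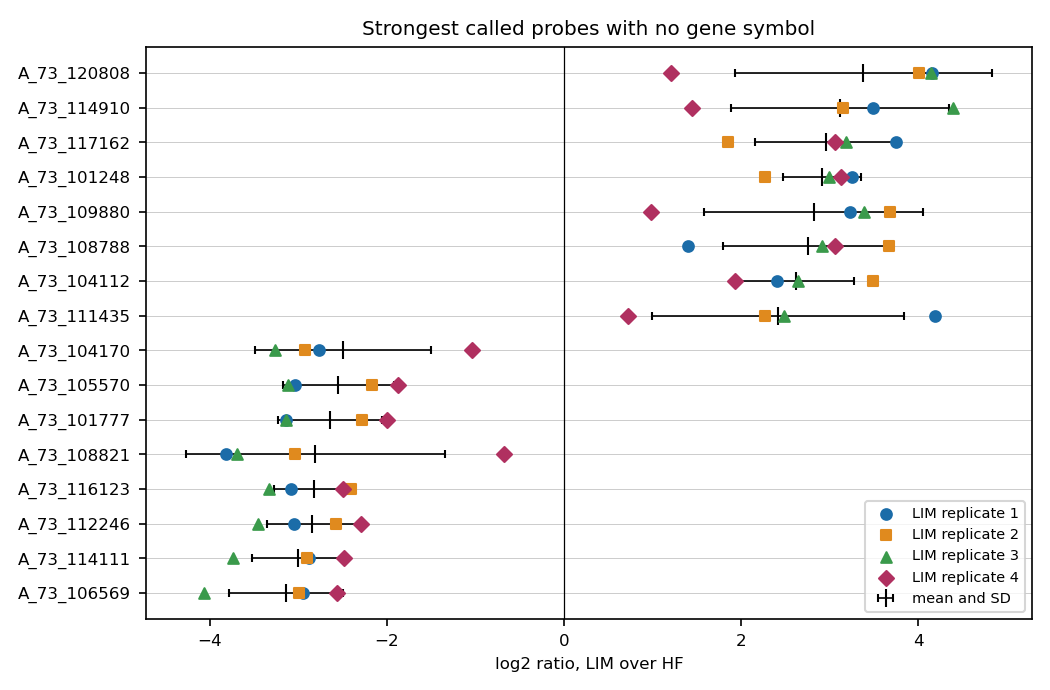
Log2 ratio of LIM over HF on each of the 4 LIM arrays (coloured symbols), with mean and SD in black (n = 4), for the 8 highest and the 8 lowest called probes without a gene symbol. The lowest 8 lie between -4.07 and -0.68 on every array, and 5 of the highest 8 have replicate 4 at the left.

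Gene lists were read against all named genes with 1 probe each, of which 9.16% were called higher and 7.78% lower, with a median ratio of 0.02. Of 13 myogenic factors and satellite cell genes tested, 8 were higher and none lower, with a median of 1.00. MYF5, the factor of early myoblasts, read 2.75, 1.79, 2.25 and 1.35, a mean of 2.04 ± 0.60 (SD, n = 4, adjusted p = 0.0142 in limma). MYOG, which starts differentiation, read 2.29, 1.27, 1.70 and 1.83, a mean of 1.77 ± 0.42. MYOD1 was nearer the threshold with 1.60, 0.48, 0.91 and 0.65 (adjusted p = 0.0430 in limma), and MYF6, the late myogenic factor, did not pass at 0.68 ± 0.51 (adjusted p = 0.0867 in limma). CDH15, the M-cadherin that holds satellite cells to fibres, averaged 2.43 ± 0.56, and DES, desmin of the muscle intermediate filament, 2.32 ± 0.75. ITGA7, the laminin receptor subunit of muscle, was higher too at 1.63 ± 0.45. NCAM1, an adhesion molecule of myoblasts, split the arrays with 1.61, 0.89, 0.06 and -2.01 and was not called.

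Of 30 sarcomere genes tested, 18 were higher and 1 lower, with a median of 0.96. Beside those named above, ANKRD1, MYL1, TNNC1 and TPM1 were higher by 2.19 to 2.65. LMOD2, MYOT, UNC45B and SMPX were also called higher, with HF not above background on any array, and their folds are given further on. They passed the filter on dim probes only because LIM was above background on every array, so their direction is not read as a result. TTN and MYBPH, which were not called, passed in the same way. TCAP, which caps titin in the Z-disc, was the gene called lower, at -0.54 ± 0.08, and its arrays agreed closely. The 11 genes that were not called lay between -0.54 (TNNI3, the cardiac troponin I) and 0.79 (TRIM63, a ubiquitin ligase of muscle). LIM replicate 2 gave the lowest ratio in 10 of the 18 higher genes. Of 9 genes of calcium handling and excitation, 6 were higher and none lower, with a median of 1.03. They were the acetylcholine receptor subunits CHRNG, CHRNB1 (1.23 ± 0.44), CHRND (1.03 ± 0.36) and CHRNE (0.77 ± 0.38), the fast calcium pump ATP2A1 (1.41 ± 0.33) and STAC3, a partner of the excitation-contraction channel (1.06 ± 0.42). Of 15 genes of muscle energy metabolism, 3 were higher and 1 lower, with a median of 0.09. The muscle forms of glycolytic enzymes PGAM2 (2.03 ± 1.00) and ENO3 (1.56 ± 0.43) and myoglobin, MB (0.52 ± 0.26), were higher. ALDOA, the aldolase of muscle and many other cells, was lower at -0.50 ± 0.03. With median centring ALDOA turned to 0.16.

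Of the 23 lists, that of fibroblast and interstitial matrix genes had the highest median. Of 21 fibroblast and interstitial matrix genes tested, 10 were higher and 2 lower, with a median of 1.33. The list medians on the arrays were 1.59, 1.62, 1.74 and 0.54, and LIM replicate 4 was the lowest array in all 10 of the higher genes. COL1A1 read 3.33, 2.03, 2.65 and 0.86, and COL1A2 read 4.04, 2.56, 3.56 and 0.57 (adjusted p = 0.0456 in limma). DCN, decorin, read 3.51, 1.92, 2.33 and -0.19 and was not called. PDGFRA, the receptor that marks fibroblast and adipocyte precursors, went the other way at -1.26 ± 0.39 (adjusted p = 0.0160 in limma), and so did DPT, dermatopontin, at -1.15 ± 0.31. Fibroblast markers thus did not move together: COL1A1, COL3A1 and LUM (1.33 ± 0.67) were higher, PDGFRA was lower, and DCN and THY1 (0.74 ± 0.87) were not called. Their part in the other matrix results was not tested.

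Of 16 matrix proteases and inhibitors, 4 were higher and 1 lower, with a median of 0.63. CTSB, the lysosomal protease cathepsin B, read 3.25, 3.07, 3.29 and 0.37, and MMP2, gelatinase A, read 3.15, 2.48, 2.54 and 0.44. TIMP2, which inhibits MMP2 and also takes part in its activation, was at 1.92 ± 0.83, and PLAU, urokinase, at 1.41 ± 0.59. All 4 were lowest on LIM replicate 4. SERPINE2, an inhibitor of thrombin and urokinase, was lower at -0.80 ± 0.37. Of 12 genes of the dystrophin complex and the basement membrane, 3 were higher (COL18A1, HSPG2 and the sarcoglycan SGCB at 1.02 ± 0.38) and 1 was lower (the syntrophin SNTB2 at -0.77 ± 0.32), with a median of 0.90. SNTB2 lost its call with median centring and with scaling between arrays.

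In lists of other cell types the arrays often differed widely. Of 9 endothelial genes tested, none was called, although their median was 1.21. The list medians were -0.20, 2.65, 0.70 and 1.79 on LIM replicates 1 to 4. KDR, the main receptor of vascular endothelial growth factor, read -0.13, 2.29, 0.67 and 2.03, and ESAM and EMCN, both endothelial surface proteins, read -0.50, 3.37, 1.13 and 2.53 and -0.63, 2.79, 0.76 and 2.59. CLDN5 and PLVAP, by contrast, stayed between -0.04 and 0.80. With median centring 7 of the 9 were called higher, in a setting that called 4271 of all 17342 probes higher. The median of all probes was then 0.18. COL18A1 and MCAM (0.43, 3.66, 2.03 and 2.53, not called) also had LIM replicate 1 lowest and replicate 2 highest, and the part of endothelial cells in the value of COL18A1 was not tested.

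Of 10 smooth muscle and pericyte genes none was called, and the list medians were 0.30, 0.66, 1.65 and 0.01. ACTA2, smooth muscle actin, read -0.05 on LIM replicate 4 and between 1.5 and 2.43 on the others, and TAGLN, transgelin, read 0.30, 0.72, 1.42 and -2.43, so that LIM replicate 3 was highest and replicate 4 lowest in both. Of 12 adipocyte genes 1 was called lower, the bright probe of CEBPA. PPARG, the main factor of fat cell formation, was at -0.21 ± 0.48, and FABP4, a fatty acid carrier, read 2.99, 1.64, 0.02 and -0.86. Of 7 macrophage and leukocyte genes 1 was lower, CD4 (-0.97 ± 0.41), whose other probe read 0.04. CD14 and CD68 of macrophages were at 0.07 ± 0.28 and 0.17 ± 0.10. Of 5 Schwann cell genes ERBB3, a neuregulin receptor, was higher at 0.47 ± 0.21 and NGFR, the low-affinity neurotrophin receptor, was lower at -1.84 ± 0.52, whereas another probe of NGFR read 0.10. The part of other cell types in these ratios was not tested.

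Signalling genes moved in both directions. Of 21 growth factors and binding proteins 6 were higher and 1 lower, with a median of 0.50. IGF2R, the receptor that clears IGF2, read 2.80, 2.48, 2.92 and 1.23, a mean of 2.36 ± 0.78. IGFBP2, a carrier of insulin-like growth factors, averaged 1.31 ± 0.50, and TGFB2 averaged 1.32 ± 0.71 (adjusted p = 0.0406 in limma). TGFB3 was lower on its brighter probe, at -1.11 ± 0.40, and at -0.09 on the other. Of 14 Notch and Wnt genes 3 were higher and 2 lower. HEYL, a Notch target, read 0.87, 2.62, 2.70 and 2.75, and DKK3, a secreted relative of the Wnt inhibitors, read 3.66, 2.48, 2.86 and 0.39. SFRP1, which binds Wnt ligands, was at 1.11 ± 0.26. HES1, another Notch target, was lower at -0.89 ± 0.27 and TCF7, a partner of beta-catenin, at -1.13 ± 0.14 on the brighter of its probes and -0.18 on the other.

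Of 17 chemokines and cytokines none was higher and 3 were lower, with a median of -0.34. CXCL5, which attracts neutrophils, read -1.76, -2.03, -2.14 and -0.62, and IL18 was at -0.70 ± 0.26, beside CCL2 above. CXCL8 split the arrays with -2.79, -0.48, -1.96 and 1.84. Of 9 interferon response genes none was called, with ISG15 at -1.11 ± 0.88. Of 16 genes of cholesterol and fatty acid synthesis 3 were lower and none higher. These were FADS2, a desaturase (-1.37 ± 0.57), ELOVL6, an elongase (-1.11 ± 0.58), and SREBF1, the factor that drives lipid synthesis genes (-0.51 ± 0.14). FDFT1, squalene synthase of the cholesterol branch, was at 0.02 ± 0.70 and was not called, and the list median of -0.02 turned to 0.41 with median centring.

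Genes of basic cell functions gave smaller ratios. Of 52 cytosolic ribosomal proteins 26 were higher and none lower, with a median of 0.44, and 43 were higher on all 4 arrays. The largest ratios were those of RPS12 (1.31 ± 0.59), RPS24 (1.26 ± 0.22), RPL13 (1.04 ± 0.12) and RPS6 (1.00 ± 0.20), and RPL7 was at -0.07. These probes were among the brightest, with a median at the 99.7 percentile of mean intensity. The count of 26 fell to 9 when the scanner software's ratios were used and to 5 when all 8 arrays were fitted together. In the HER comparison, where the beef breed was in green, the list median was -0.36, and 0.13 with outlying backgrounds replaced. On HER replicates 1 to 4 the list medians were 0.19, -0.02, -1.71 and -0.04. HER replicate 3 had disturbed local backgrounds, and it also entered the fit of all 8 arrays. Dye and breed cannot be told apart for these small ratios.

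Of 23 genes of the cell cycle and DNA replication, 1 was lower, CDC45 of the replication fork (-0.94 ± 0.38), and 1 higher, CCNE2 (0.40 ± 0.14), with a median of -0.33. The list medians were -1.02, -0.18, -0.64 and 0.16, and without LIM replicate 4 limma called 11 lower and 2 higher. Calls rose in general in that setting, with 2308 of all 17342 probes called lower and 2658 higher. MCM5 of the replicative helicase read -1.65, -0.98, -1.45 and -0.09, and PLK1, a mitotic kinase, read -1.63, -0.82, -1.02 and 0.37. Neither was called. With median centring the list median was 0.01.

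The 56 genes of the respiratory chain had a median close to 0, with 7 higher and 2 lower. ATP5F1E of ATP synthase (1.51 ± 0.75) and COX7A1, the muscle form of a cytochrome oxidase subunit (1.41 ± 0.79), led the higher ones, and NDUFA5 of complex I was lower at -0.63 ± 0.14. None of 26 proteasome subunits was called, with a median of -0.17 that turned to 0.34 with median centring. Of 19 chaperones 3 were higher, PDIA3 (1.47 ± 0.37), HSPA5 (0.75 ± 0.27) and HSP90B1 (0.72 ± 0.32), which all work in the endoplasmic reticulum. Of 11 common reference genes 4 were higher, GUSB (1.53 ± 0.48), RPS9 (0.59 ± 0.12), ACTB (0.53 ± 0.27) and RPLP0 (0.45 ± 0.23), and none was lower. ACTB and RPLP0 lost their calls when the scanner software's ratios were used. GAPDH was steady over the LIM arrays at 0.34 ± 0.07, just under the threshold of fold change.

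**Figure D4:**
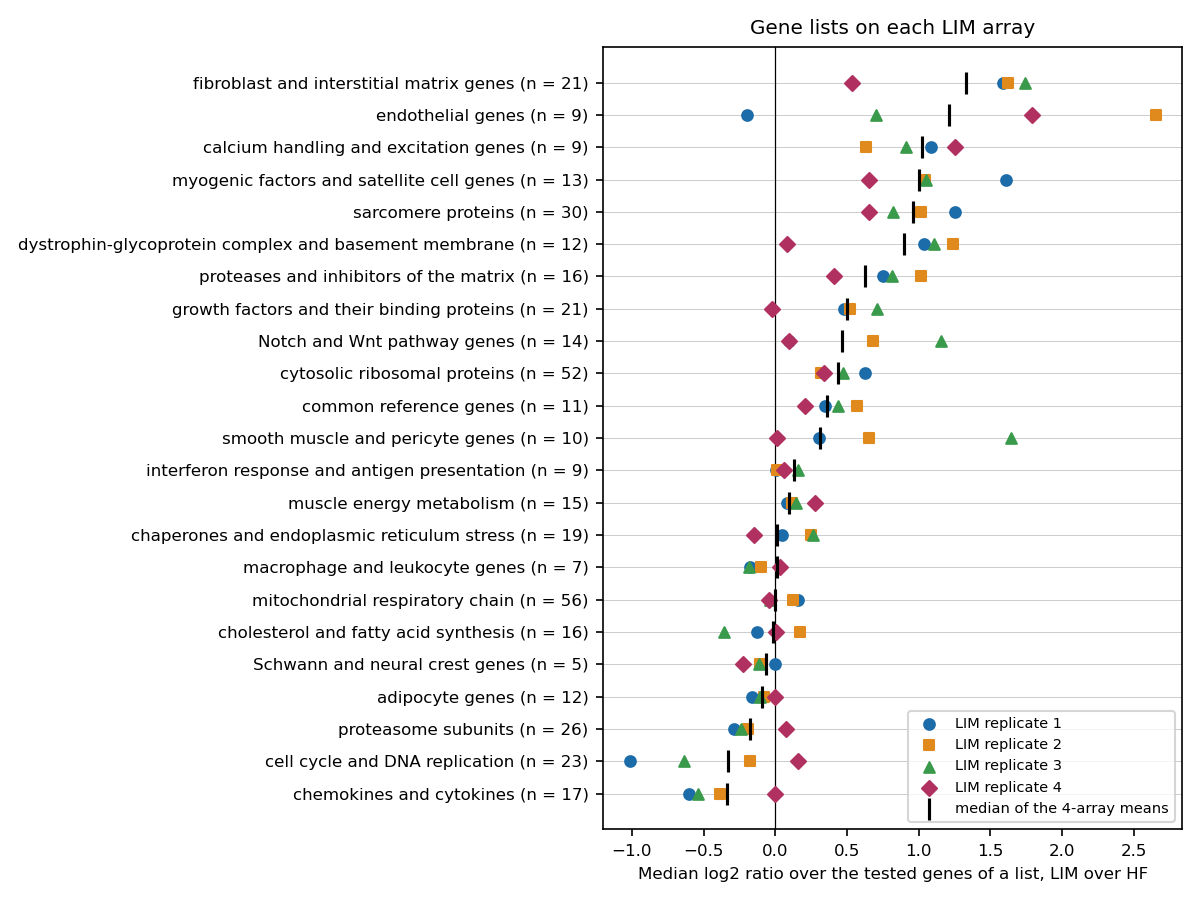
Median log2 ratio of LIM over HF over the tested genes of each of 23 lists, on each of the 4 LIM arrays (coloured symbols) and over the 4-array means (black bar). The matrix list has replicate 4 apart at 0.54 while the other 3 arrays lie between 1.59 and 1.74, and the endothelial list spans -0.20 to 2.65.

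The 4 arrays did not agree equally well. Over the 17342 tested probes, which are not independent of each other, the log2 ratios of LIM replicates 2 and 3 correlated with r = 0.82, replicates 1 and 3 with 0.77, and replicates 1 and 2 with 0.68. LIM replicate 4 correlated less with each of them, with r = 0.34, 0.54 and 0.56. The 2 spots of a probe on one array were also compared. Their median difference was 0.039 to 0.054 with r between 0.98 and 0.99, against a median difference of 0.17 to 0.30 between arrays. Spots of one array share their RNA, labelling and hybridisation, so this difference measures spot noise alone. LIM replicate 4 also had the smallest SD of log2 ratios over all tested probes, 0.574 against 0.646 to 0.663. Among probes called higher it gave the lowest ratio in 57.5%, and the highest in 11.1%. Among probes called lower it gave the most negative ratio in 36.1% and the least negative in 37.5%.

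Some large differences were nearly the same on all arrays. Among called named genes with a mean of at least 1 in size, FAM89A had the smallest spread, with 1.79, 1.97, 1.89 and 1.86, a mean of 1.88 ± 0.08. NOS2, the inducible nitric oxide synthase, was at -1.18 ± 0.08, GLRX3, a glutaredoxin, at -1.05 ± 0.09, CTTN, the actin-binding cortactin, at 1.10 ± 0.09, ADRA2A, an adrenergic receptor, at -1.37 ± 0.09, and PRPF39, a splicing factor, at 1.25 ± 0.11 (SD, n = 4 each, adjusted p = 0.00924 in limma for all 6). These 6 are spread over unrelated functions. The 6 called genes with the largest spread were FMOD, COL11A1, COL1A2, COL3A1 and CTSB, with SDs of 1.42 to 1.64 and LIM replicate 4 lowest in all 5, and ACTA1, with LIM replicate 2 lowest.

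Larger gaps between arrays belonged to genes that were not called, and they were singled out after their values were seen. SFRP2, a secreted Wnt regulator, read -2.79, 2.83, 2.79 and 1.93. CCN3, a matricellular protein, read 0.43, 2.71, 6.28 and 0.56, and KLK12, a serine protease, read 2.28, -3.09, -3.45 and 0.86. EDN1, endothelin 1, read -0.55, 3.65, 0.32 and 3.54, the same order of high and low arrays as the endothelial genes. PTX3, a soluble pattern receptor, read 3.34, 1.26, -0.10 and -1.59. Such ratios describe single arrays and not the breeds.

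**Figure D5:**
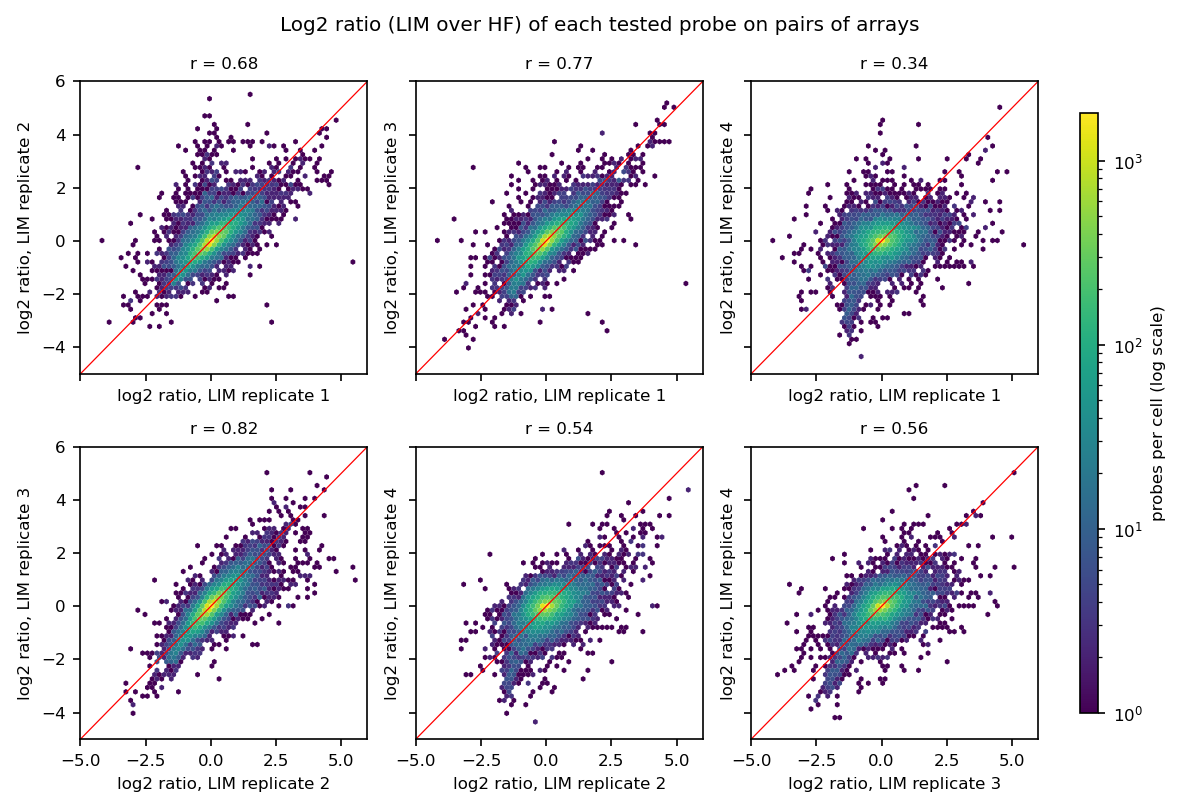
Log2 ratio of LIM over HF of each tested probe on 2 LIM arrays, for the 6 pairs of arrays, with the number of probes per cell in colour (log scale) and the line of equality in red. The cloud is narrow for replicates 2 and 3 (r = 0.82) and wide for replicates 1 and 4 (r = 0.34), where a tail of probes near -1.3 on replicate 1 reaches below -3 on replicate 4.

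Some transcripts were above background on the LIM side only. In 342 tested probes the HF side was above background on no LIM array, and in 4 probes the LIM side was above background on none. Of the 342, 16 were called, all higher in LIM, and of the 4 none was, where 17.3% of all tested probes were called. A probe with HF above background on no array passed the filter only if LIM was above background on all 4. The direction of the 16 calls thus follows largely from the filter and is not read as a result. The red channel, which held LIM, also detected more probes on every LIM array, and its part in this count was not tested. Their folds are the measured mean ratios, taken with an HF value that was not above background, and are not lower bounds. SMPX, a small protein of the muscle cytoskeleton, read 2.12-fold higher, and LRRN1, a neuronal leucine-rich repeat protein, 1.89-fold. UNC45B, a myosin chaperone, read 1.78-fold, MYOT, myotilin of the Z-disc, 1.61-fold, and LMOD2, which lengthens thin filaments, 1.60-fold. The unnamed probe A_73_118826 read 2.13-fold higher. Such dim probes say little about size, since both channels lie near the background.

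Probes of one gene did not always agree. Of 367 genes with more than 1 tested probe, 136 had probes of opposite sign and 2 had probes called in opposite directions. FITM2, which forms lipid droplets, read 1.04 ± 0.50 on one probe and -0.68 ± 0.28 on the other, and AMIGO1, a neuronal adhesion protein, 0.43 ± 0.20 and -0.69 ± 0.27. Where the brightest probe was called higher, another probe of the gene was called higher in 6 of 41 genes (14.6%). Where it was called lower, another probe was called lower in 5 of 35 genes (14.3%). Of all tested probes, 8.57% were called higher and 8.71% lower. By the rule used, the other probes of a gene are its dimmer ones. FOSB, an immediate early factor, and PHF12, a chromatin factor, were called lower on both of their probes, at -1.92 and -1.30 and at -1.90 and -0.52. The DCN probe reported above had a dimmer partner at -0.33 ± 0.36. A result of a single probe is a result of that probe.

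The HER comparison shares the HF breed and possibly the HF cultures, so its values are set beside those of LIM and no likeness is read from them. HER over HF was at 3.12 ± 2.22 for ACTA1, 2.39 ± 1.80 for MYH3, 2.19 ± 1.43 for CDH13 and 2.06 ± 0.38 for H19 (SD, n = 4). HER replicate 3 had disturbed local backgrounds. With marked backgrounds replaced, HER over HF was 4.29 for ACTA1, 3.52 for MYH3, 3.25 for CDH13 and 2.26 for H19. In the 14 bright lower genes HER over HF lay between -1.41 and -0.94, and between -1.06 and -0.76 with backgrounds replaced. FADS2 was at -0.01 ± 0.52 and IL18 at 0.04 ± 0.37 in HER, and at 0.20 and -0.10 with backgrounds replaced. The difference between the LIM and the HER ratio was tested for each of 17631 probes. LIM was in red and HER in green, so a difference between the dyes enters this contrast and cannot be told apart from the breeds. At the adjusted p 0 probes were called in limma (0.0%), and 1522 (8.63%) passed at the unadjusted p, so that no named difference between LIM and HF was shown to be larger or smaller than that between HER and HF. Without HER replicate 1 the count was 219. GLRX3 had the smallest adjusted p of the genes named here, 0.0754 in limma, with -1.05 ± 0.09 in LIM and -0.30 ± 0.08 in HER.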

How the data were processed

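RNA of LIM and HF muscle cell cultures had been hybridised to 2-colour Agilent arrays. The authors deposited, per the file headers, Feature Extraction 10.7.3.1 output: median intensities of spots and local backgrounds, marks for outlying spots, and the software's own background-subtracted, dye-normalized log10 ratio (red to green), which their table of the whole series repeats. The other deposited columns used were marks and probe names with no unit. The probes were designed on a bovine build (Btau 3.1) older than the gene table used for names.

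From the median intensities, normexp background correction (offset 50), loess within each array, averaging of the spots of a probe and log2 of LIM over HF were computed (limma 3.58.1, R 4.3.3). Control and outlying spots were left out. Tested probes were above background, in at least 1 of their 2 spots, in 4 or more of the 8 channels of the LIM arrays. Only these 4 arrays entered the fit (lmFit, eBayes), and probes were called at a Benjamini-Hochberg adjusted p of 0.05 and a fold change of 1.3. The difference from HER was fitted over all 8 arrays. Precision is limited by 4 arrays, for which an exact two-sided sign-flip test cannot go below 0.125. Symbols came from RefSeq gene records and, for 6 probes, from the study's gene table, and named 8303 of 21475 probes. Of a gene's probes the brightest was used.

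Named are the 20 highest and 20 lowest named genes and the 8 highest and 8 lowest unnamed probes among those called with one sign on 4 arrays, up to 4 called and some uncalled members of each of 23 lists, the myogenic factors, the 6 steadiest and 6 most variable called genes, and probes with 1 side not above background. Further members were named after their values were seen. Members and lists were chosen with earlier results of these data known. The fit was tested on simulated data. Alternatives are described below.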

Additional observations from a re-analysis of the deposited data

Results flagged for a closer look

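Of 137 genes and probes named, 11 had 1 LIM array far from the other 3 by Dixon's test, a rule that chance alone meets in about 1 of 20 groups. LIM replicate 4 was the stray array for OS9 (0.91), CTSB (0.37), SREBF1 (-0.72) and the unnamed probes A_73_120808 (1.21) and A_73_109880 (0.98). The median of the fibroblast and interstitial matrix list was also set apart on that array, at 0.54. LIM replicate 2 was the stray array for ACTA1 (2.12), MYL2 (2.13) and SFRP1 (0.73). NOS2 (-1.30) and ALDOA (-0.54) were set apart on LIM replicate 3 by a small gap, and HEYL (0.87) on LIM replicate 1.

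RPLP0 was higher in LIM on all 4 arrays, with a mean of 0.45, and lower in HER on all 4. In HER it read -0.05, -0.28, -2.34 and -0.43, and -2.34 came from replicate 3, whose local backgrounds were disturbed. With marked backgrounds replaced, the HER mean was -0.16. The dyes were exchanged between the LIM and HER arrays. The test of the difference between LIM and HER gave an adjusted p of 0.310 in limma.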

How the results depend on the processing

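The count of 2997 called probes was within 1.5 times under 12 alternatives that keep limma, between 2650 without the filter on dim probes and 4264 with the scanner software's ratios or those of the series table. It was 5065 with median centring, 5013 with array weights and 4597 at the unadjusted p. The methods' t-test, run on the same values, gave 3415 calls at their threshold and 69 after Benjamini-Hochberg adjustment. Leaving out 1 LIM array gave 0 to 4966 calls. The fit of all 8 arrays with a replicate block called 3921 probes, against 4233 in that fit without the block. Arrays with the same number in LIM and HER had correlations of their deviations of -0.00678, -0.146, -0.126 and 0.313, so the numbers were not taken to pair the samples. The LIM minus HER difference, with 0 calls, gave 1522 at the unadjusted p, 1 with marked backgrounds replaced, 41 with the scanner software's ratios, and 0 to 219 without 1 array. With the replicate block it also gave 0. The median correlation between LIM arrays moved by less than the spread of the 6 pairs under each of the 4 alternatives tried. Among 137 named genes and probes, scaling between arrays ended 22 calls and median centring 11. Leaving out LIM replicate 3, where limma called 0 probes, ended all 122 calls among them.

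Signs turned for 1 called gene, ALDOA (0.16 with median centring), and for genes near 0 that were not called. NCAM1 was -0.0317 without background correction, -0.0142 with marked backgrounds replaced, -0.0927 with scaling and -0.105 with the scanner's ratios. TAGLN was -0.00116, -0.00739, -0.267 and -0.00216 in the same order. With median centring PPARG was 0.0492, PLIN1 -0.00837 and CD68 -0.116, and with array weights CD14 was -0.0118. Without 1 array NCAM1 ranged from -0.351 to 0.854, TAGLN from -0.469 to 0.813, CNN1 from -0.200 to 0.943, PPARG from -0.357 to 0.0170 and CD14 from -0.0372 to 0.145. The cause of these changes was not tested. Where a probe was close to the background in both channels, the size of its ratio is limited by that background.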
